A study of Mus musculus with 18 samples.

Results

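The photoresponse shutoff and calcium feedback genes were 10 of the 23420 gene symbols in the count tables, chosen by name: Grk1, Rgs9, Rgs9bp, Rcvrn, Guca1a, Guca1b, Gucy2e, Gucy2f, Slc24a1 and Pdc. All 10 passed the filter on low counts and were tested. RNA was sequenced from retinas of 9 albino BALB/cJ mice that the labels give as wild type, aged 8 to 10 weeks, with 3 mice in each of 3 groups. Naive mice received neither light nor treatment. Vehicle mice were dark adapted for 16 h, exposed to white light of 15000 lux for 1 h and injected daily with DMSO. TD139 mice had the same light and 15 mg/kg of TD139, a small-molecule inhibitor of the lectin galectin-3, in DMSO. Retinas of light-exposed mice were taken 4 days after the light. Naive and vehicle mice differed in light, dark adaptation and injection together, and these cannot be told apart. Whole retinas were used, so fewer rods and less RNA per rod cannot be told apart either.

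A rod answers light when its activated receptor switches on transducin and then the cGMP phosphodiesterase, which closes the cGMP-gated channels of the outer segment. The genes described here code for proteins that end this response and restore the dark state. The receptor kinase GRK1 phosphorylates the activated receptor, and recoverin (Rcvrn) restrains the kinase while calcium is high. The GTPase-activating protein RGS9 and its membrane anchor (Rgs9bp) speed the turn-off of transducin. When the channels close and the exchanger of sodium, calcium and potassium (Slc24a1) keeps removing calcium, the calcium sensors GCAP1 (Guca1a) and GCAP2 (Guca1b) activate the retinal guanylate cyclases (Gucy2e and Gucy2f), and cGMP is made again. Phosducin (Pdc) binds the transducin beta and gamma subunits.

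The tables held 26171887 to 30201517 reads in genes per mouse. A set of 5 rod markers together reached 33199 to 33909 CPM (counts-per-million units scaled by the trimmed mean of M values, TMM) in naive mice, against 20489.6 to 26873 in vehicle mice and 27019 to 31154 in TD139 mice. Microglia, gliosis and Mueller glia markers moved with the groups. The 6 microglia markers summed to 22.2 to 26.3 CPM in naive, 111 to 190 in vehicle and 17.9 to 69.4 in TD139 mice, and 4 of the 6 were called higher in vehicle than in naive mice and 4 lower in TD139 than in vehicle mice. The 4 Mueller glia markers summed to 3729 to 4637, 5520 to 6023 and 4029 to 5241 CPM in the same order, and the 2 gliosis markers to 213 to 307, 574 to 818 and 142 to 281 CPM. The 5 retinal pigment epithelium markers summed to 113 to 167 CPM in TD139 against 199 to 419 in vehicle mice, and 2 of the 4 that passed the filter and were tested were lower. Bipolar markers went both ways in that comparison (3 higher and 2 lower of 6), and 1 of 5 ganglion cell markers was lower in TD139 than in vehicle mice. No cone or amacrine marker was called by edgeR, although the summed amacrine markers were lower in every naive mouse (672 to 774 CPM) than in any vehicle (782 to 938) or TD139 mouse (818 to 890.0). No defining marker of these lists was at or under 3 counts in all mice. The 4 lens markers summed to 6871 CPM in vehicle mouse 2 and to at most 276 CPM in any other mouse. The part of these other cells in the results below was not tested.

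All 10 are protein-coding, and their positions are from GENCODE on GRCm38. Guca1b (chr17:47385393-47392967, plus strand) and Guca1a (chr17:47394558-47400584, minus strand) are neighbours. Rcvrn (chr11:67695326-67703333, plus), Gucy2e (chr11:69218117-69237036, minus) and Rgs9 (chr11:109225355-109298129, minus) share chromosome 11. Gucy2f is X-linked (chrX:142081160-142196931, minus). Grk1 is at chr8:13405081-13421951 (plus), Rgs9bp at chr7:35578993-35585582 (minus), Slc24a1 at chr9:64922861-64951607 (minus) and Pdc at chr1:150319417-150333906 (plus).

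In naive retina the genes spanned a wide range of levels. Per kilobase of the longest coding transcript, Guca1a was at 2068 ± 264 CPM (SD, n = 3 mice), Rcvrn at 1681 ± 572 and Guca1b at 967 ± 241, so the calcium sensors held the top of the order. Pdc followed at 813 ± 114 and Rgs9 at 402 ± 59.3. Grk1, at 270 ± 31.1, and Slc24a1, at 256 ± 23.0, could not be ordered, since their mice overlapped. The membrane anchor Rgs9bp, at 129 ± 19.0, lay below its partner Rgs9. The cyclase Gucy2e was at 90.4 ± 3.54 and Gucy2f, the lowest of the 10, at 22.6 ± 0.536. Neighbours overlapped over the mice from Guca1a to Pdc, and every other neighbouring pair except Grk1 and Slc24a1 was separate. Pdc has coding transcripts of 654 to 3335 bases, Rgs9 of 1743 to 3464 and Gucy2e of 3645 to 8331, so their places depend on which transcript is counted.

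Promoter sequence was taken for 7 of the genes from RefSeq on GRCm38.p6, and 100 bases before the start are shown for the 3 windows that hold the core site of CRX, a homeobox factor of photoreceptors. The core was searched as TAATCC or its reverse complement GGATTA from 250 bases before to 50 bases after the start. It is set in capitals, and each line reads 5′ to 3′ on the gene's strand, which is the minus strand for all 3.
Gucy2e, chr11:69237023-69237122: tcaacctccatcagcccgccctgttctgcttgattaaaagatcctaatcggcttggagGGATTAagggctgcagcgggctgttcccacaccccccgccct
Gucy2f, chrX:142196937-142197036: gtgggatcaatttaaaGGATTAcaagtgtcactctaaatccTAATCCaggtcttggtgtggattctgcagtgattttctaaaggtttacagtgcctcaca
Guca1a, chr17:47400607-47400706: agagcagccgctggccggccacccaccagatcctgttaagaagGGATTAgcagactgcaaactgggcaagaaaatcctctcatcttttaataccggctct
The core began 42 bases before the start in Gucy2e, 57 before it in Guca1a, and 84 and 59 before it in Gucy2f. It was found in 3 of the 7 windows and in 7.06% of all 32851 promoter windows of the same length. The letters TGCTGA, from the binding site of the rod leucine zipper factor NRL, lay on either strand in 2 of the 7, Grk1 and Rgs9, and in 19.5% of all windows. The letters describe these windows only.

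Vehicle mice were compared with naive mice to see how light damage left these genes. Grk1, Rgs9bp, Pdc, Slc24a1 and Gucy2e were lower in vehicle mice, at 0.536 to 0.662 times their naive level. The estimates of all 10 were below 0, as were those of 50.2% of all genes tested. The 5 calls stand against 2.89% of all 15196 genes tested that were called lower in this comparison, with no member called higher by edgeR, DESeq2 or limma voom or at an unadjusted p under 0.05 (4.91% of all genes were called higher). The median log2 fold change was -0.61 over the 10 and -0.0018 over all genes tested. In 8 of the 10, every vehicle mouse lay below every naive mouse, which held for 16.6% of all genes. Calls were made with edgeR's quasi-likelihood test at a Benjamini-Hochberg adjusted p under 0.05 over all genes.

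Among the genes that act on the activated receptor, Grk1 was at 1846, 1907 and 2273 CPM in the naive mice, 1082, 1209.7 and 935 in the vehicle mice and 1579, 2527 and 2394 in the TD139 mice. Every vehicle mouse was below every mouse of the other groups, and TD139 mouse 1 lay below the naive mice. The log2 fold change of vehicle against naive was -0.90 ± 0.17 (SE; edgeR adjusted p = 0.0209). Rcvrn was far more variable, at 2234, 1926 and 1084 CPM in naive, 1275, 1464 and 830.1 in vehicle and 1324, 1409.8 and 1474 in TD139 mice. The groups overlapped, since naive mouse 3 lay below 2 of the vehicle mice, and the change of -0.55 ± 0.27 did not pass the test (adjusted p = 0.213). Rcvrn lies across from Glp2r on the other strand, and Glp2r had 71 to 99 reads per mouse against 24704 or more for Rcvrn. An antisense gene across from Pdc, 2310030A07Rik, had at most 2 reads in a mouse.

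Of the pair that turns off transducin, Rgs9bp was at 817, 744 and 988 CPM in naive mice and at 469, 499 and 407 in vehicle mice. It fell by 0.89 ± 0.19 on the log2 scale (adjusted p = 0.0269), and no vehicle mouse reached a naive mouse. Rgs9 was at 1258, 1295 and 1630.3 CPM in naive mice against 1203, 992 and 933 in vehicle mice. These groups did not overlap, but the log2 fold change of -0.42 ± 0.14 did not pass (adjusted p = 0.0782). The ratio of Rgs9 to Rgs9bp was 1.64 ± 0.101 in naive, 2.28 ± 0.288 in vehicle and 1.78 ± 0.417 in TD139 mice (SD, n = 3). All 3 vehicle mice exceeded the naive mice in this ratio, with an exact two-sided permutation p of 0.1, the smallest that 3 against 3 mice can give. After a correction for length and GC content by the longest coding transcript, it was 1.57 ± 0.205, 2.11 ± 0.360 and 2.02 ± 0.358, and the TD139 mice also lay above every naive mouse (exact p = 0.1). By the median coding transcript it was 1.54 ± 0.259, 2.03 ± 0.374 and 2.15 ± 0.323, with vehicle overlapping naive (exact p = 0.2) and TD139 again above naive (exact p = 0.1).

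In the calcium loop, the exchanger Slc24a1 was at 1203, 1372 and 1435 CPM in naive and 956, 977 and 652 in vehicle mice. The groups were apart, and Slc24a1 fell by 0.63 ± 0.17 (log2; adjusted p = 0.0423). Gucy2e had a narrow naive range of 722, 757 and 781 CPM, against 538, 565 and 394 in vehicle mice, and fell by 0.60 ± 0.16 (adjusted p = 0.0463). Its vehicle mice were all below its naive mice, with vehicle mouse 3 lowest, as it was for all members but Guca1a. Gucy2f was at 187, 179 and 185 CPM in naive and 138, 140.1 and 78.8 in vehicle mice. It was likewise apart, yet the change of -0.63 ± 0.27 did not pass (adjusted p = 0.168).

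The calcium sensors of the cyclases did not pass, and phosducin did. Guca1a was at 2069.6, 1648 and 1699.8 CPM in naive and 1293, 1489 and 1348 in vehicle mice, which did not overlap, with a log2 fold change of -0.39 ± 0.12 (adjusted p = 0.0596; 0.0435 in the fit without TD139 mouse 1). Guca1b was at 2051, 1524 and 1263 CPM in naive and 1099, 1296 and 861 in vehicle mice. Vehicle mouse 2 was above naive mouse 3, and the change of -0.57 ± 0.19 did not pass (adjusted p = 0.0860). Phosducin was at 3121, 2365 and 2649.9 CPM in naive against 1541, 1788 and 1385 in vehicle mice. These groups were apart, and Pdc fell by 0.79 ± 0.16 on the log2 scale (adjusted p = 0.0236).

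**Figure D1:**
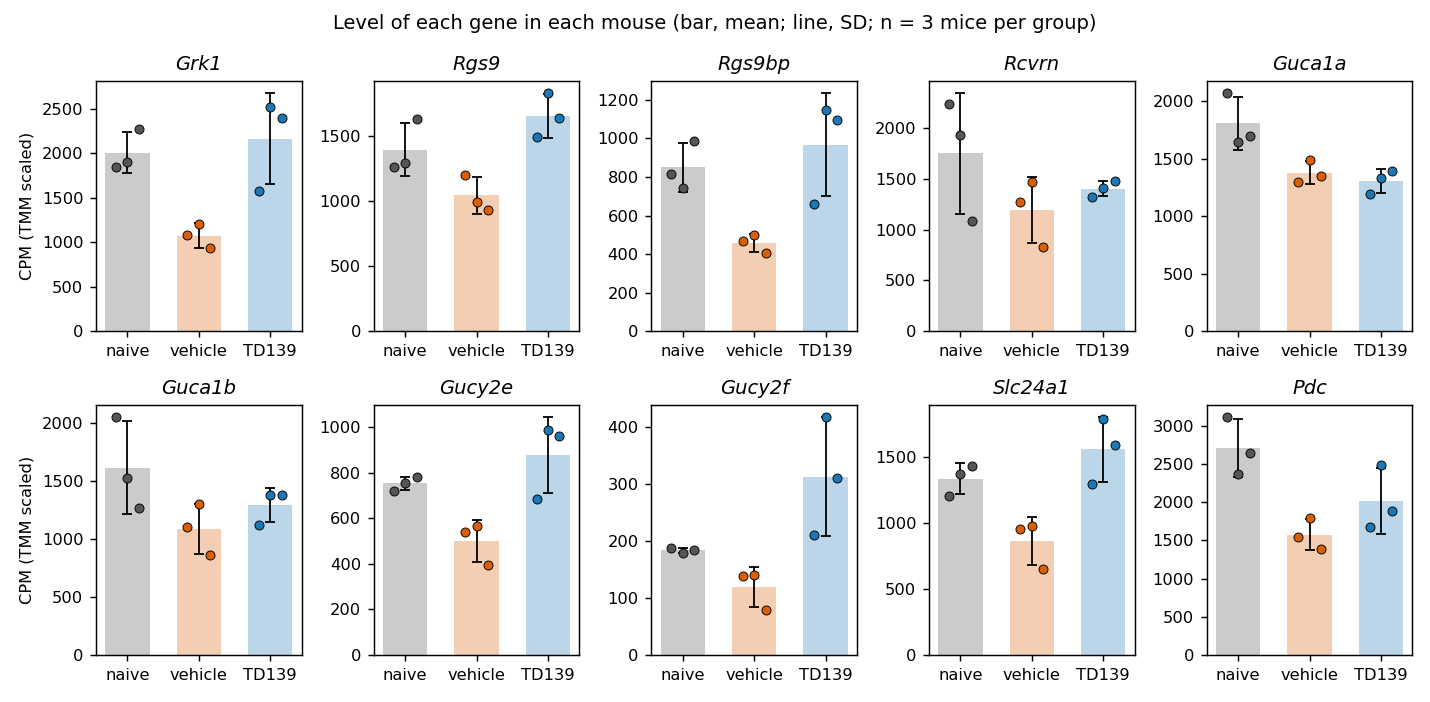
CPM (TMM scaled) of the 10 genes in each mouse, with bars at the mean of 3 mice and lines for the SD. Grk1 and Rgs9bp were lowest in all vehicle mice, whereas the 3 groups of Rcvrn overlapped.

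These calls rested on every naive mouse. Without naive mouse 1, 2 or 3, or without vehicle mouse 1 or 3, edgeR called 0 members lower, with Grk1 at adjusted p values of up to 0.0752. In these fits 7 to 9 members were at an unadjusted p under 0.05, and the share of all genes at that level was not computed. Over all genes the same 5 fits called 29, 0, 77, 30 and 19 lower, in that order, against 439 with all mice. The estimates of the 5 called genes moved less. Leaving out any 1 of the 9 mice, Grk1 lay between -0.99 and -0.80 and Pdc between -0.89 and -0.66 on the log2 scale. Rgs9bp lay between -0.96 and -0.76, Slc24a1 between -0.73 and -0.47 and Gucy2e between -0.69 and -0.45. Of the genes not called, Rcvrn ranged from -0.80 to -0.33, Guca1b from -0.72 to -0.35 and Gucy2f from -0.76 to -0.40. Without TD139 mouse 2, 4 were called, against 2.03% of all genes, and without TD139 mouse 3, 3 were called, against 1.81%. Without vehicle mouse 2, the library with the lens markers, the same 5 genes were called.

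TD139 was compared with vehicle to ask which of these genes stood higher in treated mice after the same light. Grk1, Rgs9, Rgs9bp, Gucy2e, Gucy2f and Slc24a1 were higher in TD139 mice, 1.59 to 2.63 times their vehicle level, while Pdc, Rcvrn, Guca1a and Guca1b did not pass the test. The 6 calls stand against 17.2% of all genes called higher in this comparison, with no member called lower by edgeR, DESeq2 or limma voom or at an unadjusted p under 0.05 (16.2% of all genes were called lower). The median log2 fold change was 0.74 over the 10 and -0.016 over all genes tested. TD139 and vehicle mice were separate for these 6 genes, and 26% of all genes were separate and higher in TD139 mice. Vehicle mice serve in both comparisons.

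Gucy2f, the least abundant cyclase, had the largest estimate of the 10 in this fit, but not after the correction by the median coding transcript described below, where Gucy2e (0.86) was above it (0.79). It was at 209.8, 418 and 310.3 CPM in TD139 mice, above each vehicle mouse, and rose by 1.40 ± 0.27 on the log2 scale (edgeR adjusted p = 0.00816). Gucy2e was at 687, 988 and 963 CPM in TD139 mice, also above each vehicle mouse, with a rise of 0.82 ± 0.16 (adjusted p = 0.00668). The ratio of Gucy2e to Gucy2f was 4.11 ± 0.218 in naive, 4.31 ± 0.597 in vehicle and 2.91 ± 0.486 in TD139 mice (SD, n = 3). Every TD139 mouse had a lower ratio than every mouse of the other groups on this scale, with exact two-sided permutation p values of 0.1 for each, the smallest possible. The longest coding transcripts of these genes are close in length, at 8331 and 8122 bases, but differ in GC content, at 52.6% and 42.0%. After a correction for length and GC content the ratio was 3.97 ± 0.277, 4.02 ± 0.404 and 3.20 ± 0.270, and the TD139 mice were still apart (exact p = 0.1 against either group). With the median coding transcript in that correction the ratio was 3.75 ± 0.542, 3.62 ± 0.284 and 3.77 ± 0.150, and the groups overlapped (exact p = 0.4 against vehicle and 0.9 against naive), so the lower ratio in TD139 mice depended on the transcript counted.

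The receptor kinase gene Grk1 rose by 1.01 ± 0.17 on the log2 scale from vehicle to TD139 mice (adjusted p = 0.00568). Rgs9bp was at 660.5, 1147 and 1097 CPM in TD139 mice and rose by 1.08 ± 0.20 (adjusted p = 0.00610), and its TD139 mice all exceeded its vehicle mice. Rgs9, at 1493, 1829 and 1637 CPM, rose by 0.67 ± 0.14 (adjusted p = 0.00719). Slc24a1, at 1296, 1787 and 1592 CPM, rose by 0.85 ± 0.17 (adjusted p = 0.00650). In all 6 genes TD139 mouse 1 was the lowest of its group, and it had the highest microglia sum of its group, 69.4 CPM against 17.9 and 20.2 in the others. The same 6 genes were called without this mouse, as they were without each of the other 8 mice in turn.

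The calcium sensor genes, which have the shortest transcripts of the 10, did not pass. Guca1a was at 1194, 1330.1 and 1392 CPM in TD139 mice, inside or below the vehicle range, with a log2 fold change of -0.08 ± 0.11 (adjusted p = 0.624). Guca1b was at 1119, 1373 and 1376 CPM, overlapping vehicle, with a change of 0.25 ± 0.19 (adjusted p = 0.327). Rcvrn, the sensor of the kinase, changed by 0.24 ± 0.27 (adjusted p = 0.510). Phosducin was at 1670.5, 2494 and 1879 CPM in TD139 mice, so that mouse 1 lay within the vehicle range, and changed by 0.36 ± 0.16 (adjusted p = 0.105; 0.0364 without TD139 mouse 1).

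**Figure D2:**
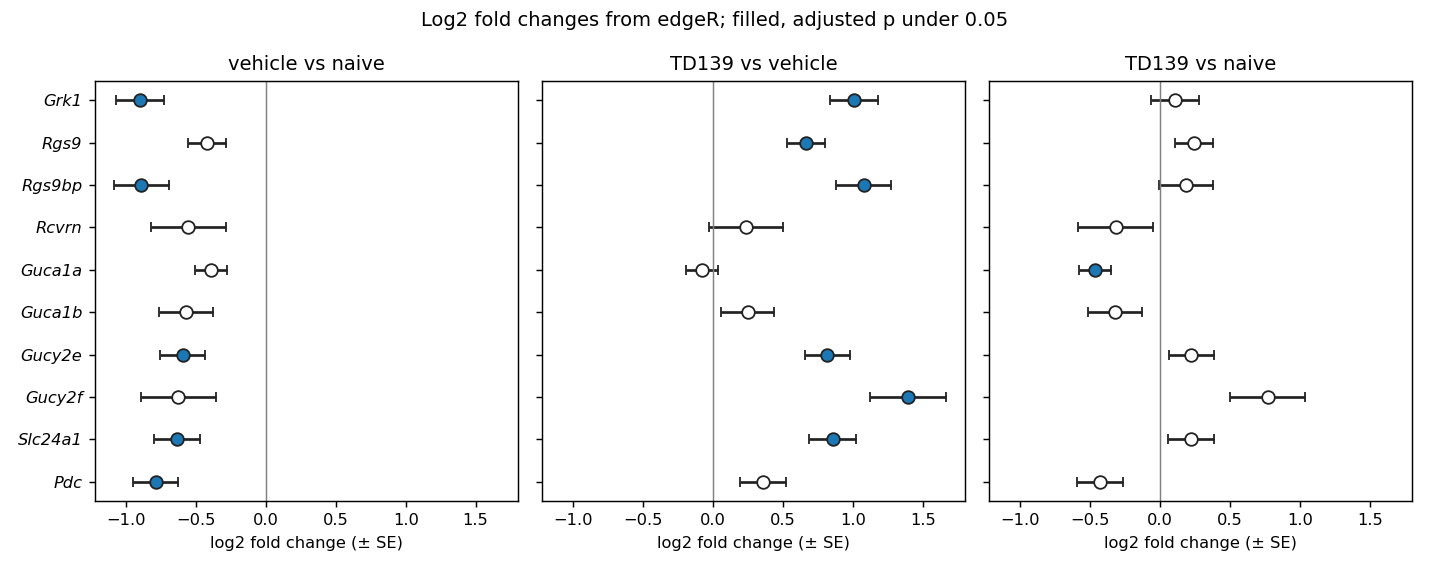
Log2 fold changes of the 10 genes from edgeR in the 3 comparisons, with lines for the SE and filled points at an adjusted p under 0.05. The points lie below 0 throughout for vehicle against naive, and 6 filled points lie above 0 for TD139 against vehicle.

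The 6 genes called in TD139 against vehicle were those with the longest transcripts, from 3464 bases for Rgs9 to 8331 for Gucy2e. Transcript length moved with this comparison across the whole table. The median log2 fold change was -0.37 over 3196 genes with transcripts under 2 kb, -0.023 over 8445 genes of 2 to 5 kb and 0.35 over 3438 genes above 5 kb. Across genes, which are not independent replicates, the Spearman correlation of length with the log2 fold change was 0.49, against 0.59 for TD139 against naive and -0.11 for vehicle against naive. The share of reads that fell outside genes was also higher in TD139 mice, 21.3% to 22.8%, than in naive, 19.1% to 19.9%, or vehicle mice, 16.5% to 19.4%. The part of RNA quality or library preparation in this trend was not tested.

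Each member stood above the median gene of its own length class. The short genes Guca1a, Rcvrn and Guca1b had log2 fold changes from -0.08 to 0.25, over the -0.37 of their length class. The 5 members above 5 kb had changes from 0.82 to 1.40, over 0.35. When a smooth curve of length and GC content was removed from each mouse before the fit, 9 members were called higher in TD139 than in vehicle mice, against 14.6% of all genes, and the median change of all genes was 0.073. The calcium sensors then had log2 changes of 0.54 ± 0.13 for Guca1a (adjusted p = 0.0146), 0.78 ± 0.19 for Guca1b (adjusted p = 0.0179) and 0.81 ± 0.24 for Rcvrn (adjusted p = 0.0386). Gucy2f moved from 1.40 to 0.87 ± 0.24 and Grk1 from 1.01 to 0.69 ± 0.15, both still called. Pdc alone was not called, at 0.13 ± 0.13 (adjusted p = 0.489). With the median coding transcript of each gene in place of the longest, a choice made after seeing the data, 7 were called, against 16.9% of all genes: Guca1b at 0.56 (adjusted p = 0.0534), Rcvrn at 0.63 (adjusted p = 0.0924) and Pdc at 0.34 (adjusted p = 0.0887) were not.

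**Figure D3:**
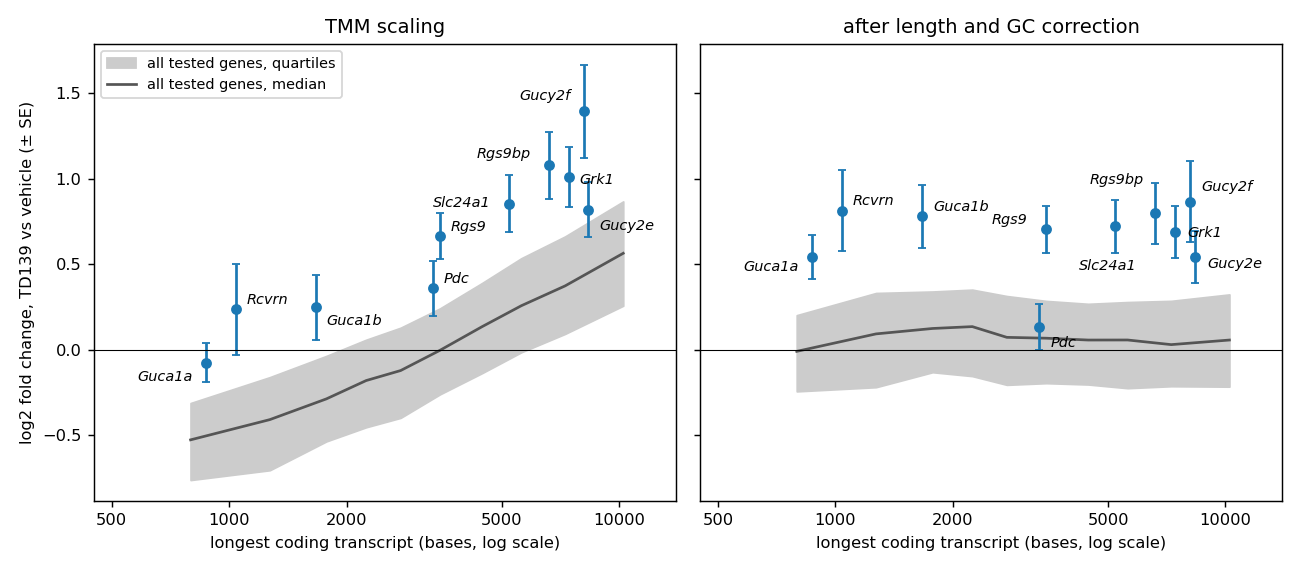
Log2 fold change of TD139 against vehicle (± SE) plotted on the longest coding transcript of each gene in bases (log scale), before and after the length and GC correction, with the median and quartiles of all tested genes in grey. The 10 members climb with length on the left, from -0.08 for Guca1a to 1.40 for Gucy2f, and 9 of them lie between 0.54 and 0.87 on the right.

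The same correction raised the vehicle against naive calls to 8 lower members, against 12.8% of all genes, with a median change of -0.10 over all genes. Rgs9 (-0.48, adjusted p = 0.0311), Guca1a (-0.59, adjusted p = 0.0141) and Guca1b (-0.76, adjusted p = 0.0224) were added, and Rcvrn (-0.72, adjusted p = 0.0619) and Gucy2f (-0.64, adjusted p = 0.0917) remained outside the threshold.

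TD139 mice were also set against naive mice, to see whether treated retinas still differed from undamaged ones. Only Guca1a passed, lower in TD139 mice by 0.47 ± 0.12 on the log2 scale (edgeR adjusted p = 0.0465), with 2.38% of all genes called lower. No member was called higher by edgeR (2.72% of all genes; 1 member with DESeq2, which called 9.4% of all genes higher, and 3 with limma voom, which called 19.7%), although Gucy2f lay above the naive range in every TD139 mouse, with a change of 0.77 ± 0.27 (adjusted p = 0.101; 0.0355 without TD139 mouse 1), as 15.3% of all genes did. The other 8 ran from -0.43 ± 0.16 for Pdc (adjusted p = 0.109) to 0.25 ± 0.14 for Rgs9 (adjusted p = 0.252), and at an unadjusted p under 0.05 there were 3, Guca1a, Gucy2f and Pdc, against 29.6% of all genes. The Guca1a call was lost without any of 8 of the 9 mice (naive mouse 3 was the exception) and after the length and GC correction, where it was at -0.05 (adjusted p = 0.893). Those 8 fits called 0% to 3.97% of all genes lower, and the corrected fit called 0%.

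The other genes of the pathway were read as 4 lists of 31 genes in all. Of the 9 rod activation genes, 7 were lower in vehicle than in naive mice and 6 higher in TD139 than in vehicle mice, with medians of -0.66 and 0.43 (log2). Gnb1, the transducin beta subunit gene, changed by -0.59 (adjusted p = 0.0235) and 0.43 (adjusted p = 0.0206), and Gnat1, the rod transducin alpha subunit gene, by -0.59 (adjusted p = 0.0298) and 0.38 (adjusted p = 0.0514). The 7 calls became 0 without any 1 naive mouse or without vehicle mouse 1 or 3. In those fits 8 to 9 were at an unadjusted p under 0.05, and the share of all genes at that level was not computed. The 6 calls became 3 without vehicle mouse 1 and 1 without vehicle mouse 3, TD139 mouse 2 or TD139 mouse 3. Of 10 further shutoff and feedback genes, 1 was lower in vehicle than in naive mice. This was Ppef2, a calcium-binding phosphatase gene of photoreceptors, which fell by 0.82 (adjusted p = 0.0235) and rose by 0.88 with TD139 (adjusted p = 0.00623). Slc24a2, a further gene for an exchanger of sodium, calcium and potassium, rose by 0.55 in TD139 against vehicle (adjusted p = 0.0174). Against naive mice Slc24a2 rose by 0.60 (adjusted p = 0.0466). Calm2, a calmodulin gene, fell by 0.28 in TD139 against vehicle (adjusted p = 0.0429). Calm2 did not pass after correction for length and GC by the longest transcript (0.01, adjusted p = 0.967) or by the median coding transcript (-0.22, adjusted p = 0.0955). Slc24a2 did not pass against vehicle by the longest (-0.00176, adjusted p = 0.992) but did by the median transcript (0.61, adjusted p = 0.0174), and against naive it passed by neither (adjusted p = 0.817 and 0.101). Gnb1 passed against vehicle by the longest (0.52, adjusted p = 0.0154) and not by the median transcript (0.34, adjusted p = 0.0582). Gnat1 passed against vehicle by both (0.75, adjusted p = 0.0101, and 0.56, adjusted p = 0.0218).

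Rod arrestin (Sag), which caps the phosphorylated receptor after GRK1 has acted, is given although it passed in no comparison, and was picked after its values were seen. It changed by -0.26 from naive to vehicle mice (adjusted p = 0.213) and by -0.10 from vehicle to TD139 mice (adjusted p = 0.573). Against naive mice it changed by -0.35 (adjusted p = 0.0974), and every TD139 mouse lay below every naive mouse. After the 2 corrections TD139 against vehicle was at -0.19 (longest) and 0.16 (median), of opposite sign, and TD139 against naive at -0.49 and -0.23, with none called (smallest adjusted p = 0.0711, for vehicle against naive). Of 9 cone phototransduction genes, edgeR called 0 between vehicle and naive mice, and DESeq2 and limma voom called 1 each. In the edgeR fit 2 were at an unadjusted p under 0.05, and the share of all genes at that level was not computed. Between TD139 and vehicle mice the cone channel gene Cnga3 rose by 0.56 (adjusted p = 0.0439) and Gnb3, whose product cones share with ON bipolar cells, fell by 0.62 (adjusted p = 0.0144). After the same 2 corrections Gnb3 was at -0.14 (adjusted p = 0.464) and -0.31 (adjusted p = 0.111), while Cnga3 passed both (0.65 and 0.78). The Cnga3 call was lost under 5 of 12 alternatives (either run alone, library size alone, only the groups compared and the replicate block) and in 4 of the 9 fits without 1 mouse, at adjusted p values of up to 0.144. Leaving out 1 mouse also ended the calls of Gnb3 in 3 fits, Gnb1 in 4, Slc24a2 in 4 and Calm2 in 6 of 9 in this comparison, and that of Slc24a2 against naive in 6. Of the 3 photoreceptor transcription factors, Crx (-0.67, adjusted p = 0.0224) and Nr2e3 (-0.48, adjusted p = 0.0249) were lower in vehicle than in naive mice. These 2 calls and that of Ppef2 were lost in the same 5 fits as the rod activation genes, without naive mouse 1, 2 or 3 or vehicle mouse 1 or 3, at adjusted p values of up to 0.0950. Crx (0.63, adjusted p = 0.00834) and Nr2e3 (0.46, adjusted p = 0.00954) were higher in TD139 than in vehicle mice. Slc24a2 was the only one of the 31 that edgeR called between TD139 and naive mice.

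To set the members against rod genes, each was expressed relative to the mean log2 CPM of the 9 rod activation genes of the same mouse. The share of a member's reads that came from cones or other cells was not tested. In vehicle mice the differences from naive ran from -0.25 for Grk1 to 0.26 for Guca1a, 5 above 0 and 5 below, and only Guca1a was apart from the naive mice, on the higher side. Of all genes set against the same reference, 65.6% were apart and higher in vehicle mice and 0.178% apart and lower. With Crx, Nrl and Nr2e3 as the reference instead, 6 of the 10 differences were below 0 and 2 members were apart and lower. On that reference 68.9% of all genes were apart and higher and 0.309% apart and lower. In TD139 mice against vehicle, Gucy2f (0.91), Rgs9bp (0.56), Grk1 (0.51), Slc24a1 (0.39) and Gucy2e (0.34) were higher relative to the rod genes in every mouse, and Guca1a (-0.56) and Guca1b (-0.22) lower. These 5 and 2 of 10 stand against 4.74% of all genes apart and higher and 45.2% apart and lower on this scale. Each of these had an exact two-sided permutation p of 0.1, the smallest that 3 against 3 allows, and 0.231 after adjustment over 10 genes and 3 comparisons, so the design could not reach the threshold.

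After the length and GC correction, where 2.62% of all genes were apart and higher and 41.1% apart and lower, other members were apart. Guca1b (0.26) and Rcvrn (0.32) were then higher relative to the rod genes in TD139 than in vehicle mice, Guca1a was at 0.0077, and Pdc (-0.39) was the member that lay lower. Gucy2f (0.35) and Slc24a1 (0.21) kept a higher relative level in every TD139 mouse, while Grk1 (0.15), Rgs9bp (0.24) and Gucy2e (0.020) overlapped vehicle mice. By the median coding transcript only Gucy2e (0.30) and Gucy2f (0.24) were higher in every TD139 mouse and Pdc (-0.23) lower, while Guca1b (0.0086), Rcvrn (0.099), Slc24a1 (0.072) and Guca1a (-0.19) overlapped. Of all genes, 2.97% and 47.9% were then apart and higher or lower.

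**Figure D4:**
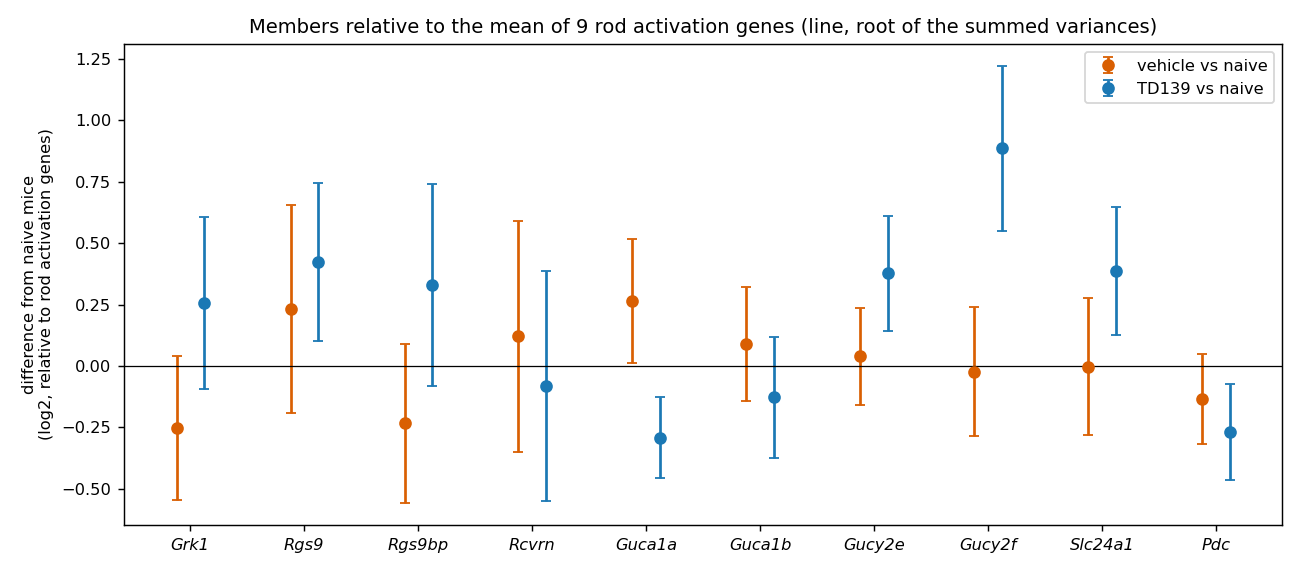
Difference from naive mice of each gene's log2 CPM relative to the mean of 9 rod activation genes, before the length and GC correction. Lines give the root of the summed variances of the 2 groups of 3 mice. Gucy2f in TD139 mice lies farthest from 0, at 0.89, and Guca1a moves to opposite sides in vehicle (0.26) and TD139 mice (-0.29). After the correction by the longest coding transcript, not drawn, Guca1a was at 0.15 in vehicle and 0.16 in TD139 mice. Gucy2f in TD139 mice was then at 0.42 and Pdc at -0.50. By the median coding transcript Guca1a was at 0.19 and -0.0037, and in TD139 mice Gucy2f was at 0.31 and Pdc at -0.37.

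The members' shared profile over the 9 mice was taken as the mean of their centred log2 CPM. Gucy2e lay closest to it, with a root mean square difference of 0.106, then Slc24a1 at 0.140, and Gucy2f (0.375), Guca1a (0.336) and Rcvrn (0.320) lay farthest. Of 4948 other genes with a mean of 50 CPM or more, the 5 nearest to this profile were Stard7 (0.0584), Abca4 (0.0614), Crx (0.0625), Cep120 (0.0694) and Agpat3 (0.0742). The profile was built from these 9 mice, so nearness to it is a description.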

How the data were processed

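RNA sequencing of 18 libraries from 9 mice was used, 2 sequencing runs per mouse that were summed. The deposited values are read counts per gene symbol; the authors sequenced stranded mRNA libraries as single reads and counted with BaseSpace RNA Express, on mm10 per the labels. The use of strand in counting is not given in the sources used here. The study speaks of DESeq2-normalized values, but the files hold whole, unscaled counts. Reads in no gene (16.5% to 22.8%) were left out. Counts were tested with edgeR 4.0.16 (default expression filter, TMM, robust quasi-likelihood test, 3 groups in 1 fit, 15196 genes), and adjusted p under 0.05 was called. DESeq2 1.42.0, limma 3.58.1, other scalings and filters, single runs, a replicate block, omission of each mouse and offsets from splines of transcript length and GC content were alternatives. The mouse is the replicate. With at least 26171887 reads per mouse and 2346 for the least abundant member, counting error was small. Genes named beside the 10 members are the called genes of each pathway list if at most 5, otherwise the 3 most abundant, and the 5 nearest to the members' profile. Members and lists were chosen with earlier results of these data known. A gene that this rule names, and a reference set that holds it, are not reported here. Proteins and the promoters of Rgs9bp, Rcvrn and Guca1b were not analysed here.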

Additional observations from a re-analysis of the deposited data

Results flagged for a closer look

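The share of reads that fell outside genes, which no comparison used, was at least 21.3% in TD139 mice and at most 19.9% in naive mice. Groups of 3 mice are too small for a test of single mice that stand apart.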

How the results depend on the processing

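The 6 members called higher in TD139 than in vehicle mice were called under all 12 alternatives and in all 9 fits that left out 1 mouse (6 to 7 called). The count called lower in vehicle mice was 8 with DESeq2, with limma voom and after either length and GC correction, and 3 with the replicate block. These fits called 7%, 9.95%, 12.8%, 11.3% and 2.24% of all genes lower, against 2.89% in the report's fit, so that more genes were called overall wherever 8 members were. The count was 0 to 6 leaving out 1 mouse. TD139 against naive gave 1 higher member with DESeq2 and 3 with voom. It gave 0 lower without the count filter, with only the compared groups, with the replicate block or after either correction. Over all genes, 1.47% were called lower without that filter and 0% in each of those other settings. Leaving out 1 mouse gave 0 to 1 members in each direction, against 0% to 9.87% of all genes called higher and 0% to 7.49% lower. The replicate numbers did not pair the mice (correlations of deviations from -0.259 to 0.282), so the block, which left 6 higher members in TD139 against vehicle, 3 lower in vehicle against naive and 0 in TD139 against naive, has no pairing behind it.

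Of the 31 other pathway genes, those lower in vehicle mice numbered 10 in the report's fit, 17 with voom and 16 after either correction, and 0 to 14 leaving out 1 mouse, with 1 higher under DESeq2 and voom. For TD139 against vehicle, 11 were higher, 4 to 14 leaving out 1 mouse, and 2 lower, which became 4 with voom or only the compared groups, 1 without the filter or with the second run alone, 0 after either correction and 0 to 4 leaving out 1 mouse. For TD139 against naive, 1 was higher, 2 with voom and 0 with library size alone, only the compared groups, the replicate block or either correction, and 0 to 1 leaving out 1 mouse; 0 were lower, 2 with DESeq2, 5 with voom and 0 to 2 leaving out 1 mouse.

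After the length and GC correction Guca1a in TD139 against vehicle turned to 0.54 (0.38 with the median transcript), and in TD139 against naive Grk1 turned to -0.22 (-0.29), Rgs9bp to -0.11 (-0.19), Rcvrn to 0.0898, Guca1b to 0.0181, Gucy2e to -0.10 and, with the median transcript, Slc24a1 to -0.0585; leaving out 1 mouse, Grk1 ranged from -0.0078 (without TD139 replicate 2) to 0.3029. None of these in TD139 against naive was called. Relative to the rod genes, members apart in vehicle against naive mice numbered 1 higher and 0 lower, 0 and 2 with Crx, Nrl and Nr2e3 as reference, 0 and 0 after the correction by the median transcript, and 1 to 2 and 0 to 3 leaving out 1 mouse. For TD139 against vehicle 5 were higher (5 to 6 leaving out 1 mouse) and 2 lower (2 to 3). After the correction by the longest transcript 4 were higher, by the median transcript 2, with 1 lower in each. For TD139 against naive 4 were higher (4 to 6 leaving out 1 mouse) and 1 lower (1 to 2). Against naive, 3 were higher with Crx, Nrl and Nr2e3 as reference and 6 after the correction by the longest transcript, with 1 lower in each. Of all genes, 23% were apart and higher than naive and 2.67% apart and lower. These shares were 18.1% and 4.11% with that reference and 21.9% and 1.08% after that correction. The share of all calls that were higher moved from 51.6% to 39.0% with library size alone and to 63.6% after the correction in TD139 against vehicle, and from 63.0% to 77.6% and 32.0% in vehicle against naive. The causes were not tested.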
